A study of Mus musculus with 23 samples.

Results

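Disease-associated microglia genes were followed through whole-hippocampus RNA sequencing of 3xTg mice, which model Alzheimer's disease, and of wild-type (WT) mice. The 10 genes Trem2, Tyrobp, Cst7, Itgax, Clec7a, Lpl, Cd68, Axl, Spp1 and Ctsd were taken by name from the 55335 genes of the count table, and each was found there once.

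The 23 libraries fell into 6 groups. Untreated mice of 8 months gave WT-8M (n = 4) and 3xTg-8M (n = 4), and 15 mice of 10 months had received a 28-day infusion into the lateral ventricles, of which WT-D (n = 4) and 3xTg-D (n = 4) had vehicle and WT-S (n = 3) and 3xTg-S (n = 4) had 80 µM of SCDi (ab142089). This compound inhibits stearoyl-CoA desaturase (SCD), which introduces the double bond of monounsaturated fatty acids. Vehicle and inhibitor pumps alike held 0.8% DMSO in artificial cerebrospinal fluid, so every mouse of 10 months carried a cannula and DMSO while no mouse of 8 months did. WT mice were labelled C57BL/6J x 129S1, and 3xTg mice carried, among other alleles, the APPSwe and tauP301L transgenes on a B6;129 background. According to the study's methods, all mice were female, and the human APP and tau transgenes were driven by a Thy1.2 element active in neurons, so microglia were not the cells meant to express the transgenes. Each strain difference below combines all alleles of the 3xTg line with any difference in background.

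Microglia are the resident macrophages of the brain. Around amyloid, dying cells and demyelinated axons they are known to take on a state called disease-associated, in which genes for lipid handling, lysosomal digestion and phagocytosis rise while genes of the resting, or homeostatic, state such as P2ry12 and Tmem119 fall. Its full form is known to depend on Trem2, a surface receptor for lipids and lipoproteins, and on Tyrobp (DAP12), the adaptor through which Trem2 signals. Clec7a (dectin-1) is a receptor for glucans, Itgax (CD11c) an integrin subunit, and Axl a receptor tyrosine kinase for the clearance of dying cells. Ctsd (cathepsin D) is a lysosomal protease, Cd68 a glycoprotein of the lysosomal membrane and Cst7 (cystatin F) an inhibitor of lysosomal cysteine proteases. Lpl (lipoprotein lipase) releases fatty acids from lipoproteins, and Spp1 (osteopontin) is a secreted matrix protein. Several of these genes are not restricted to microglia: Ctsd is used by nearly all cells, Lpl by hippocampal neurons, and Axl by astrocytes and vessels.

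Promoter sequences are shown for Trem2, Clec7a and Cst7, whose levels were higher in 3xTg libraries, and for Ctsd, whose level differed little, because a shared regulator of microglia, PU.1, and the lysosomal regulators of the TFE family are known to bind short motifs there. The RefSeq promoter table (GRCm38.p6) held 8 of the 10 members. Each line gives the 250 bases before the start of transcription, 5′ to 3′ on the strand of the gene. Capitals mark GAGGAA, a PU.1-type core, on either strand (TTCCTC when reversed), and CACGTG, an E-box that reads the same on both strands.
Trem2, chr17:48346151-48346400, plus strand: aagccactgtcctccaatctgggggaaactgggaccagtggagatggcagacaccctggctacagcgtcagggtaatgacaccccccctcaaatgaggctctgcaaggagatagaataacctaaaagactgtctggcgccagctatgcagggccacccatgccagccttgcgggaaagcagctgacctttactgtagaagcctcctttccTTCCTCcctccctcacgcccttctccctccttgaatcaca
Clec7a, chr6:129472780-129473029, minus strand: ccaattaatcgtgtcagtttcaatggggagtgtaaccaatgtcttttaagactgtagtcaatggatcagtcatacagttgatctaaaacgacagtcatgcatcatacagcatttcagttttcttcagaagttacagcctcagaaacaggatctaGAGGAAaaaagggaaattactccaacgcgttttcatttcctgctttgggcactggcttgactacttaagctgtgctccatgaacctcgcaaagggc
Cst7, chr2:150570165-150570414, plus strand: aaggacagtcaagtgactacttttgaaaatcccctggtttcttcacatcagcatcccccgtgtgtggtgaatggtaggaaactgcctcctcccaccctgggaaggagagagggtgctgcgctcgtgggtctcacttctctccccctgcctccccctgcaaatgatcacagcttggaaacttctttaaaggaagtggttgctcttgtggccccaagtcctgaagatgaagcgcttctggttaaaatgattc
Ctsd, chr7:142387828-142388077, minus strand: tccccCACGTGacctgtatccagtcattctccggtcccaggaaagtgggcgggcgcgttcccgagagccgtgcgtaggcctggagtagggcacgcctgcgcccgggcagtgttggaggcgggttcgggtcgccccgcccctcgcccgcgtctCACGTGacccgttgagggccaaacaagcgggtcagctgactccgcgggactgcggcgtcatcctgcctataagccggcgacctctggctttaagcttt

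GAGGAA was found in the windows of 5 of the 8 members (Trem2, Clec7a, Cd68, Axl and Spp1), beside 23.3% of all 32851 promoter windows of this length. CACGTG was found only in that of Ctsd, which held 2 copies, beside 6.02% of all windows. Members with and without a higher level in 3xTg libraries both held GAGGAA, and Cst7, with the largest ratio between the strains, held neither motif. These matches describe letters and are not evidence of binding.

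Levels are CPM, the reads of a gene scaled to a common total of gene counts per library, after TMM normalisation. Set per kilobase of transcript and averaged over the 23 libraries, Ctsd was the most abundant member (64.7 CPM per kb), followed by Lpl (37.9), Tyrobp (17.0), Axl (12.5), Trem2 (8.75), Cd68 (5.54) and Spp1 (5.02). The remaining genes lay far lower, at 0.676 CPM per kb for Clec7a, 0.319 for Cst7 and 0.139 for Itgax. Over all libraries Cst7 had 113 reads and Itgax 132, against 50784 for Ctsd, so low counts give these genes the largest counting error. Spread within groups was 7.78% of the mean for Axl and 9.1% for Ctsd, but 63.4% for Spp1, 65.9% for Cst7 and 103.0% for Itgax. In bulk tissue, fewer cells of a type and less RNA per cell cannot be told apart.

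**Figure D1:**
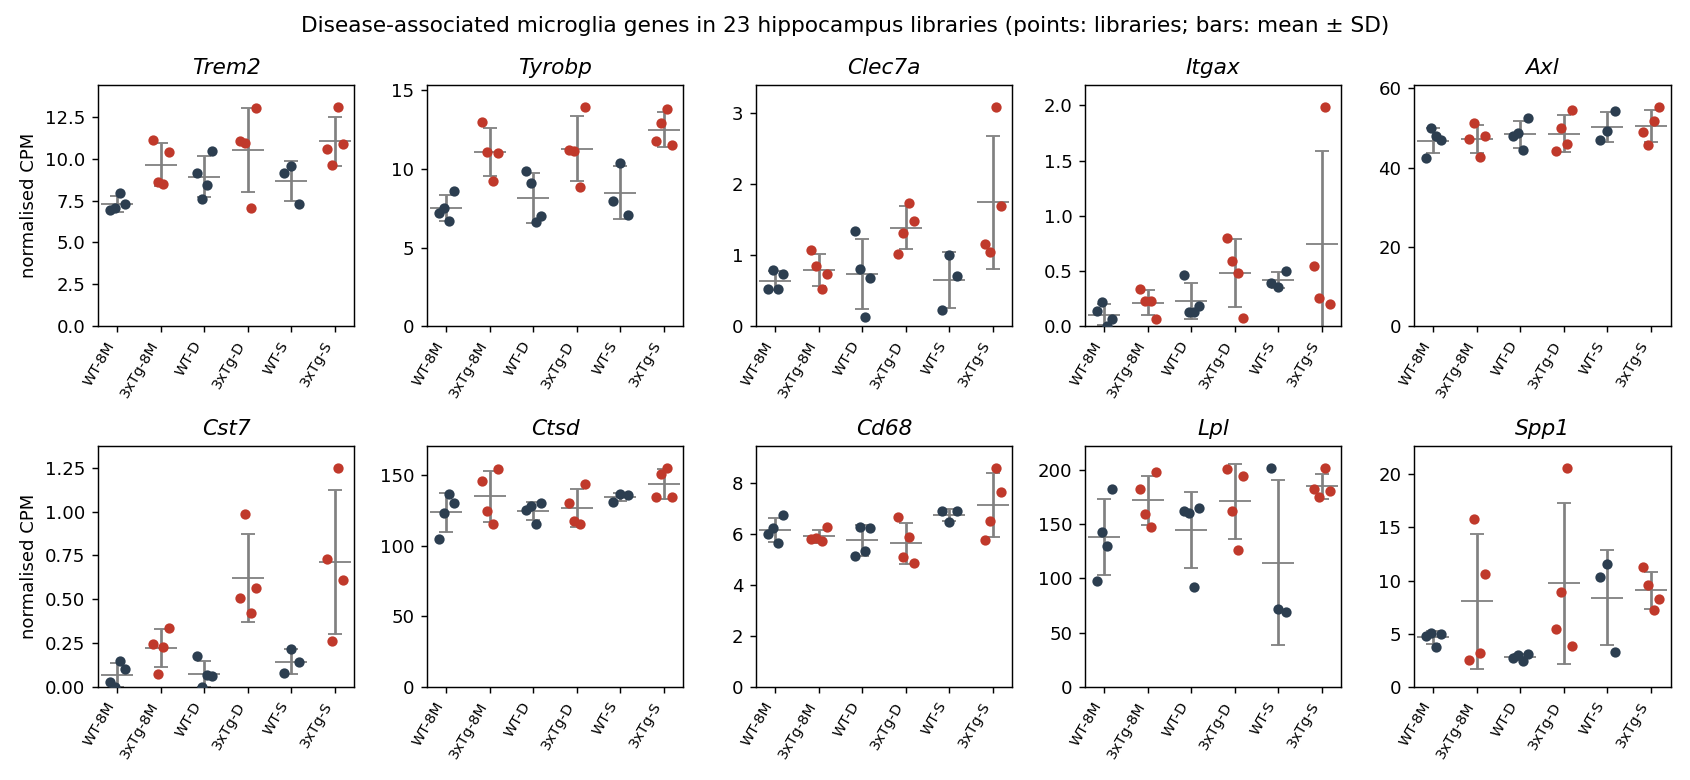
Normalised CPM (vertical axis, linear from 0) of the 10 genes in each of the 23 libraries (points) with the mean ± SD of each group, WT in dark blue and 3xTg in red. Tyrobp was higher in every 3xTg-8M library (9.24 to 12.98 CPM) than in any WT-8M library (6.69 to 8.59 CPM), whereas Axl stayed between 42.4 and 55.3 CPM in all libraries.

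Whether the strains differ in these genes was asked at 8 months, at 10 months under vehicle and at 10 months under inhibitor, in pairwise fits with edgeR's quasi-likelihood test. Calls were made where the p adjusted over all genes tested (Benjamini-Hochberg) was under 0.05. The 8 members other than Cst7 and Itgax passed the filter on low counts in every pairwise fit. At 8 months 1 of these 8 was called, where 2.58% of all 15483 genes tested were called. Under vehicle at 10 months 0 of 8 were called (1.39% of all genes), and DESeq2 called none either. Under inhibitor 0 of 8 were called (1.32% of all genes), while DESeq2 called Tyrobp (adjusted p = 0.0461). At an unadjusted p under 0.05 (edgeR) stood Trem2 and Tyrobp at 8 months, as did 2690 of all 15483 genes. Under vehicle Tyrobp and Spp1 did, as did 2038 of 15528 genes. Under inhibitor Tyrobp, Clec7a, Trem2 and Lpl did, as did 1662 of 15664 genes. The median log2 fold change of the 8 was 0.35, 0.23 and 0.24 in these comparisons, beside medians of 0.00596, -0.00286 and 0.00366 over all genes. Counted without a test, 3xTg libraries lay above all WT libraries for 2 of 8 members at 8 months (5.25% of all genes), 1 of 8 under vehicle (3.79%) and 3 of 8 under inhibitor (5.53%).

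The 3 strain pairs share no library, and their mean strain effect was estimated in one fit of all 6 groups, a contrast chosen after the data were seen. Of the 9 members that passed its filter, 4 were called higher in 3xTg: Cst7, Clec7a, Tyrobp and Trem2. In the same fit 11.0% of all 16555 genes were called. Cst7 passed this filter through 3xTg libraries alone, so its entry in that count was not free to go either way. The other 5, Lpl, Spp1, Ctsd, Axl and Cd68, were not called.

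Tyrobp (ENSMUSG00000030579.10, chr7:30413760-30417585, protein coding), the adaptor of Trem2, was the member called between the strains at 8 months. Its level was 7.20, 7.55, 6.69 and 8.59 CPM in the WT-8M libraries and 12.98, 11.1, 9.24 and 11.0 CPM in the 3xTg-8M libraries. Under vehicle it was 9.85, 9.09, 6.60 and 6.99 CPM in WT-D, against 11.2, 11.2, 8.87 and 13.9 CPM in 3xTg-D. Under inhibitor it was 7.99, 10.4 and 7.10 CPM in WT-S and 11.8, 12.9, 13.8 and 11.5 CPM in 3xTg-S. The strains did not overlap at 8 months or under inhibitor, while under vehicle replicate 3 of 3xTg-D lay among the WT-D libraries.

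In the test at 8 months Tyrobp rose by 0.57 on the log2 scale (SE 0.13, adjusted p = 0.0383, edgeR), or 1.48-fold. This call was lost without any 1 of 6 libraries: WT-8M replicate 1 (adjusted p = 0.0993), 2 (0.0991) or 3 (0.0874), or 3xTg-8M replicate 1 (0.148), 2 (0.0931) or 4 (0.0601), with log2 fold changes between 0.47 and 0.57. Under vehicle the log2 fold change was 0.46 (SE 0.16, adjusted p = 0.23, edgeR) and under inhibitor 0.56 (SE 0.14, adjusted p = 0.102, edgeR). Averaged over the 3 settings Tyrobp was higher in 3xTg by 0.53 (SE 0.09, adjusted p = 0.000223, edgeR), and this was called in 28 of 29 alternatives. It was not called with the level of homeostatic genes as a covariate (0.20, adjusted p = 0.376, edgeR).

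Trem2 (ENSMUSG00000023992.14, chr17:48346401-48354147, protein coding), the receptor itself, was at 6.92, 7.04, 7.96 and 7.27 CPM in WT-8M and at 11.1, 8.63, 8.49 and 10.4 CPM in 3xTg-8M. Under vehicle the values were 9.15, 7.62, 8.40 and 10.5 CPM in WT-D, against 11.1, 10.95, 7.07 and 13.02 CPM in 3xTg-D. With inhibitor they were 9.15, 9.57 and 7.31 CPM in WT-S and 10.6, 9.62, 13.1 and 10.9 CPM in 3xTg-S. Strains were apart at 8 months and under inhibitor, and overlapped under vehicle, where the lowest library of all was replicate 3 of 3xTg-D. The log2 fold changes were 0.42 (SE 0.12, adjusted p = 0.0958, edgeR) at 8 months, 0.23 (SE 0.17, adjusted p = 0.634) under vehicle and 0.35 (SE 0.14, adjusted p = 0.386) under inhibitor. Their mean, 0.33 (SE 0.09, adjusted p = 0.0149, edgeR), passed the test in 28 of 29 alternatives, 23 of the 29 being fits without 1 library. It did not pass with the level of homeostatic genes as a covariate (0.08, adjusted p = 0.833, edgeR).

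Among the other surface receptors, Clec7a (ENSMUSG00000079293.11, chr6:129461591-129472779) had low levels throughout and was called in the mean strain effect alone. Its levels were 0.524, 0.791, 0.526 and 0.731 CPM in WT-8M and 1.07, 0.848, 0.526 and 0.741 CPM in 3xTg-8M, which overlapped. At 10 months they were 1.34, 0.802, 0.133 and 0.674 CPM in WT-D, while 3xTg-D had 1.01, 1.31, 1.74 and 1.49 CPM. With inhibitor they were 0.233, 1.01 and 0.710 CPM in WT-S and 1.16, 1.04, 3.09 and 1.69 CPM in 3xTg-S. All 4 3xTg-S libraries lay above those of WT-S, by a narrow margin, and replicate 3 of 3xTg-S was the highest of all.

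Clec7a had log2 fold changes of 0.39 (SE 0.28, adjusted p = 0.5, edgeR) at 8 months, 0.88 (SE 0.41, adjusted p = 0.397) under vehicle and 1.37 (SE 0.48, adjusted p = 0.294) under inhibitor. The mean over the 3 settings was 0.88 (SE 0.26, adjusted p = 0.0277, edgeR). Without 3xTg-8M replicate 1 (adjusted p = 0.07), WT-S replicate 1 (0.0655) or 3xTg-S replicate 3 (0.0535) the mean of Clec7a was no longer called, with log2 fold changes of 0.75 to 0.80. The difference between the strain effects at 8 months and under vehicle was not called (0.50, SE 0.54, adjusted p = 0.773, edgeR).

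Itgax (ENSMUSG00000030789.9, chr7:128129547-128150657, protein coding) had 0 to 27 reads per library and did not pass the filter on low counts in any comparison. The values were 0 to 0.216 CPM in WT-8M, 0.0674 to 0.337 CPM in 3xTg-8M, 0.133 to 0.466 CPM in WT-D, 0.0708 to 0.796 CPM in 3xTg-D, 0.360 to 0.497 CPM in WT-S and 0.203 to 1.99 CPM in 3xTg-S. Strains overlapped in each setting, and 27 of the 43 reads of 3xTg-S came from its replicate 3. Summed counts gave a ratio of 3xTg to WT of 2.25 (95% interval 0.987 to 5.47, exact, counting error only) at 8 months, 2.06 (1.07 to 4.14) under vehicle and 1.72 (0.961 to 3.22) under inhibitor. The difference within the 3 settings was not past the spread between libraries (0.233 CPM, exact two-sided permutation test over 171500 relabellings, p = 0.157).

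Axl (ENSMUSG00000002602.16, chr7:25757273-25788705, protein coding) was the flattest member. Group means ranged from 46.8 ± 3.22 CPM (SD, n = 4) in WT-8M to 50.5 ± 4.03 CPM (n = 4) in 3xTg-S. The log2 fold changes between strains were 0.02 (SE 0.07), -7.391e-05 (SE 0.08) and 0.01 (SE 0.08) at 8 months, under vehicle and under inhibitor, and their mean was 0.01 (SE 0.05, adjusted p = 0.929, edgeR).

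Of the genes of the lysosome, Cst7 (ENSMUSG00000068129.5, chr2:150570415-150578944, protein coding) had the largest ratio between strains, on few reads. The 4 WT-8M libraries had 1, 0, 2 and 3 reads and the 4 3xTg-8M libraries 8, 1, 3 and 5. Under vehicle there were 3, 0, 1 and 1 reads in WT-D and 7, 15, 7 and 8 in 3xTg-D, and under inhibitor 1, 3 and 2 in WT-S and 12, 4, 17 and 9 in 3xTg-S. In CPM, 3xTg-D (0.419 to 0.984) lay above WT-D (0 to 0.175) and 3xTg-S (0.260 to 1.25) above WT-S (0.0776 to 0.216) with no overlap, while the groups of 8 months overlapped.

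Summed counts of Cst7 were higher in 3xTg by a ratio of 3.55 (95% interval 1.34 to 11.0, exact, counting error only) at 8 months, 7.89 (3.09 to 25.7) under vehicle and 4.76 (2.01 to 13.7) under inhibitor. Exact two-sided permutation tests over libraries gave p = 0.0857 at 8 months, p = 0.0286 under vehicle, the smallest p that 4 against 4 libraries allow, and p = 0.0571 under inhibitor. Permuting strain within the 3 settings gave a mean difference of 0.42 CPM (exact permutation test, p = 0.000192). Fitted with no filter on low counts, Cst7 had adjusted p-values of 0.277, 0.0023 and 0.0145 (edgeR) in the 3 settings.

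Ctsd (ENSMUSG00000007891.16, chr7:142375911-142388038) and Cd68 (ENSMUSG00000018774.13, chr11:69664213-69666153) showed little difference between strains. Ctsd was at 123.5 ± 13.9 CPM (SD, n = 4) in WT-8M and 134.7 ± 17.9 (n = 4) in 3xTg-8M, at 124.6 ± 6.43 (n = 4) in WT-D and 126.5 ± 13.1 (n = 4) in 3xTg-D, and at 134.4 ± 3.01 (n = 3) in WT-S and 143.5 ± 10.8 (n = 4) in 3xTg-S. The mean strain effect was 0.08 (SE 0.05, adjusted p = 0.374, edgeR) for Ctsd. Cd68 was at 6.16 ± 0.468 and 5.91 ± 0.243 CPM in WT-8M and 3xTg-8M (n = 4 each), at 5.75 ± 0.604 and 5.63 ± 0.802 in WT-D and 3xTg-D (n = 4 each), and at 6.76 ± 0.242 (n = 3) and 7.13 ± 1.24 (n = 4) in WT-S and 3xTg-S. Its mean strain effect was -0.01 (SE 0.07, adjusted p = 0.97, edgeR).

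Lpl (ENSMUSG00000015568.16, chr8:68880491-68907448) was at 97.6, 142.5, 129.9 and 182.7 CPM in WT-8M and at 182.7, 159.6, 147.3 and 197.8 CPM in 3xTg-8M. At 10 months it was at 161.9, 160.0, 92.0 and 164.9 CPM in WT-D, while 3xTg-D had 200.8, 161.8, 126.5 and 194.6 CPM. With inhibitor it was at 202.1, 71.9 and 69.0 CPM in WT-S and 182.5, 174.8, 201.6 and 180.4 CPM in 3xTg-S. All 4 values under 100 CPM were in WT libraries, yet the highest value was in a WT library too. The log2 fold changes of Lpl between strains were 0.32 (SE 0.16, adjusted p = 0.333, edgeR), 0.23 (SE 0.18, adjusted p = 0.642) and 0.70 (SE 0.29, adjusted p = 0.415), with a mean of 0.42 (SE 0.15, adjusted p = 0.0783, edgeR). Without WT-S replicate 1, the highest Lpl library of the series and thus one against the difference, the log2 fold change under inhibitor was 1.39 (adjusted p = 3.16e-06, edgeR) and the mean 0.65 (adjusted p = 0.000392). Lpl was called in 2 of 15 alternatives under inhibitor and in 3 of 29 for the mean. Without WT-8M replicate 4, the highest Lpl library of its group and thus also against the difference, the mean of Lpl was 0.47 (adjusted p = 0.0461, edgeR).

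Spp1 (ENSMUSG00000029304.14, chr5:104435118-104441050, protein coding) varied most between animals of one group among the 8 members of the pairwise fits. It was at 4.83, 5.10, 3.76 and 5.01 CPM in WT-8M and at 2.57, 15.8, 3.16 and 10.6 CPM in 3xTg-8M, so that 2 of the 4 3xTg libraries lay below every WT library and 2 far above. Under vehicle it was at 2.74, 3.01, 2.47 and 3.13 CPM in WT-D, against 5.50, 8.92, 20.6 and 3.89 CPM in 3xTg-D, with no overlap. With inhibitor it was at 10.3, 11.6 and 3.27 CPM in WT-S and at 11.3, 9.56, 7.28 and 8.25 CPM in 3xTg-S, which overlapped.

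The log2 fold changes of Spp1 between strains were 0.73 (SE 0.47, adjusted p = 0.453, edgeR) at 8 months, 1.79 (SE 0.44, adjusted p = 0.0765) under vehicle and 0.13 (SE 0.31, adjusted p = 0.935) under inhibitor, with a mean of 0.88 (SE 0.29, adjusted p = 0.0548). Under vehicle Spp1 was called in 4 of 16 alternatives, among them the fit without 3xTg-D replicate 4, the lowest of its group (2.05, adjusted p = 0.0282, edgeR). The mean was called in 6 of 29 alternatives. These were the fit with no filter and those without 3xTg-8M replicate 1 (adjusted p = 0.0184) or 3 (0.0299), 3xTg-D replicate 1 (0.043) or 4 (0.0296), or WT-S replicate 2 (0.0498). Each library left out in these fits went against the difference, a 3xTg library below its group mean or the highest WT library.

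**Figure D2:**
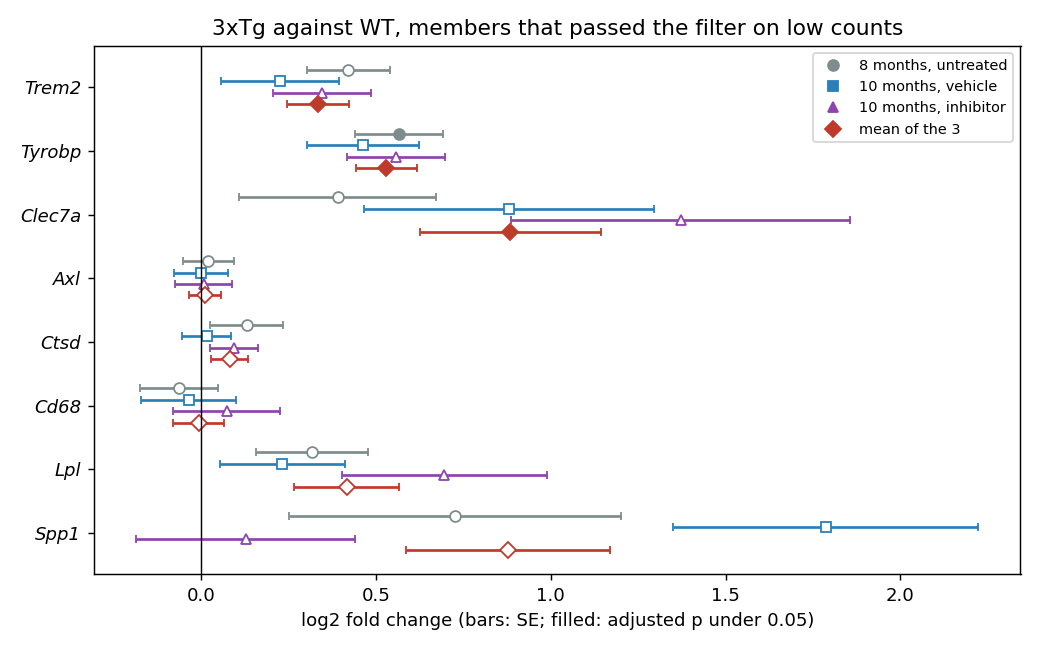
Log2 fold change of 3xTg against WT (horizontal axis) with its standard error for the 8 members that passed the filter in every pairwise fit, in the 3 settings and as their mean, filled where the adjusted p was under 0.05. Tyrobp lay between 0.46 and 0.57 in the 3 settings, Axl and Cd68 lay near 0, and Spp1 ranged from 0.13 to 1.79.

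Spp1 was set beside genes of border macrophages, the macrophages of meninges, vessels and choroid plexus, which are known to make this protein too. The summed level of 9 such genes (among them Mrc1, Pf4 and Lyve1) was 8.66, 39.4, 13.6 and 27.5 CPM in the 3xTg-8M libraries, where Spp1 was 2.57, 15.8, 3.16 and 10.6 CPM. In 3xTg-D it was 18.8, 28.8, 37.3 and 23.4 CPM beside 5.50, 8.92, 20.6 and 3.89 CPM of Spp1, and in WT-S 23.5, 31.3 and 15.6 CPM beside 10.3, 11.6 and 3.27 CPM. In these 3 groups, and in WT-8M and 3xTg-S, the library highest in Spp1 was also the highest in this sum. In WT-D it was not, with Spp1 highest in replicate 4 (3.13 CPM) and the sum highest in replicate 2 (23.7 against 22.6 CPM), and in 3xTg-D replicate 4 had a higher sum than replicate 1 but less Spp1. Over the 6 groups the sum had medians of 18.3 (WT-8M), 20.5 (3xTg-8M), 19.9 (WT-D), 26.1 (3xTg-D), 23.5 (WT-S) and 27.9 CPM (3xTg-S). Of the 9 genes 5 passed the filter on low counts under vehicle, and all 5 were higher in 3xTg (median log2 fold change 0.66). At 8 months 4 of 5 tested were higher (median 0.06), and under inhibitor 5 of 6 (median 0.35). None of those tested was called in any comparison, where 2.58%, 1.39% and 1.32% of all genes were called between strains at 8 months, under vehicle and under inhibitor. The genes that did not pass could not be called.

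Choroid plexus genes, 10 in number, stood apart in 3 libraries, at 718 CPM in 3xTg-8M replicate 4, 775 CPM in WT-S replicate 2 and 575 CPM in 3xTg-S replicate 2, against 205 to 379 CPM in the other 20, and Spp1 was 10.6, 11.6 and 9.56 CPM in these 3 libraries. Their part in the Spp1 values, and that of border macrophages, was not tested beyond a fit with the choroid plexus score as a covariate, in which Spp1 was at 0.35 at 8 months, 1.29 under vehicle and 0.29 under inhibitor, with adjusted p-values (edgeR) of 0.585, 0.618 and 0.721.

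**Figure D3:**
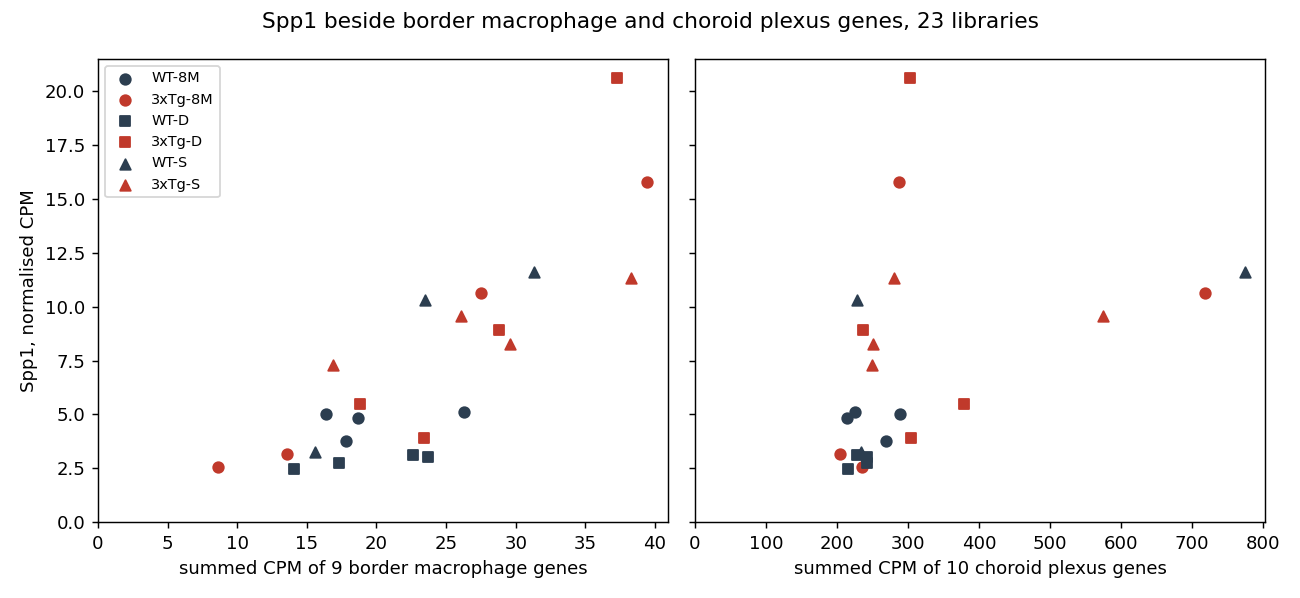
Spp1 in normalised CPM (vertical axis) against the summed normalised CPM of 9 border macrophage genes (left) and 10 choroid plexus genes (right) in the 23 libraries, WT in dark blue and 3xTg in red, with circles for 8 months, squares for vehicle and triangles for inhibitor. The highest Spp1 values, 20.6 and 15.8 CPM, were in libraries with 37.3 and 39.4 CPM of border macrophage genes and ordinary choroid plexus levels.

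In the state these genes are named for, homeostatic genes are known to fall. Here they lay higher in 3xTg. Of 14 homeostatic genes 13 were higher in 3xTg at each of the 3 settings, with median log2 fold changes of 0.23, 0.31 and 0.41, and 0, 0 and 2 were called. In the mean over the settings all 14 were higher, with a median of 0.32, beside 0.00442 over all genes. Of these 14, 8 were called higher and 0 lower, where 11.0% of all genes were called. These 8 included Tmem119, a membrane protein of microglia (0.43, adjusted p = 0.00156, edgeR), Csf1r, the receptor microglia need to survive (0.26, adjusted p = 0.00672), and the lectin Siglech (0.41, adjusted p = 0.000396). They also included P2ry13 (0.35), Olfml3 (0.54), Selplg (0.44) and Slc2a5 (1.00), a fructose transporter.

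Genes of microglia in most states were likewise higher. In the mean strain effect all 16 were higher, with a median of 0.37. Of these 16, 8 were called higher and 0 lower, beside 11.0% of all genes called. The 8 called included the complement subunits C1qa (0.44), C1qb (0.48) and C1qc (0.43) with adjusted p-values (edgeR) of 0.00187, 0.000291 and 0.00015, and the cathepsin Ctss (0.53, adjusted p = 0.000722). The others were Fcer1g (0.38), an adaptor related to Tyrobp, Cd53 (0.37), Irf8 (0.41) and Ly86 (0.37). In the pairwise fits 0 of the 16 were called at 8 months, C1qa and C1qb under vehicle, and Ctss with the 3 C1q genes under inhibitor. The summed level of the 16 genes ranged from 185 to 246 CPM in WT libraries and from 227 to 389 CPM in 3xTg libraries, over all settings.

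With the homeostatic score of each library as a covariate, the mean strain effect shrank to 0.08 (SE 0.13) for Trem2, 0.20 (SE 0.11) for Tyrobp and 0.35 (SE 0.40) for Clec7a. Cst7 went from 2.25 to 1.56 (SE 0.57), Spp1 from 0.88 to 1.37 (SE 0.43), Lpl from 0.42 to -0.19 (SE 0.16) and Ctsd from 0.08 to -0.06 (SE 0.08). None of the 9 members was then called, and the smallest adjusted p-values were 0.0728 for Spp1 and 0.131 for Cst7 (edgeR). The summed level of the 14 homeostatic genes itself ranged from 551 to 696 CPM in WT and from 639 to 805 CPM in 3xTg libraries, so the covariate and the strain overlap in what they describe.

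Of 24 further genes known from the disease-associated state, 23 were tested in the mean strain effect, with a median log2 fold change of 0.02. Of these, 14 were higher and 9 lower, and 3 were called higher and 2 lower, where 11.0% of all genes were called. The genes called higher were B2m, the light chain of MHC class I (0.51, adjusted p = 0.00315, edgeR), Cd52, a surface glycoprotein (0.67, adjusted p = 0.0115), and Cybb, a subunit of the phagocyte oxidase (0.85, adjusted p = 0.0369). Gpnmb, a lysosomal glycoprotein of phagocytes, fell by 0.40 (adjusted p = 0.00719) and Mamdc2 fell by 1.41 (adjusted p = 0.00425). At 8 months Gpnmb was the sole gene called of this list, with 7.61 ± 1.03 CPM in WT-8M against 4.82 ± 0.677 CPM in 3xTg-8M (SD, n = 4 each, adjusted p = 0.0467, edgeR). Apoe, the lipid carrier that microglia take up and make, was at 0.15 (adjusted p = 0.053) in the mean and was not called.

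**Figure D4:**
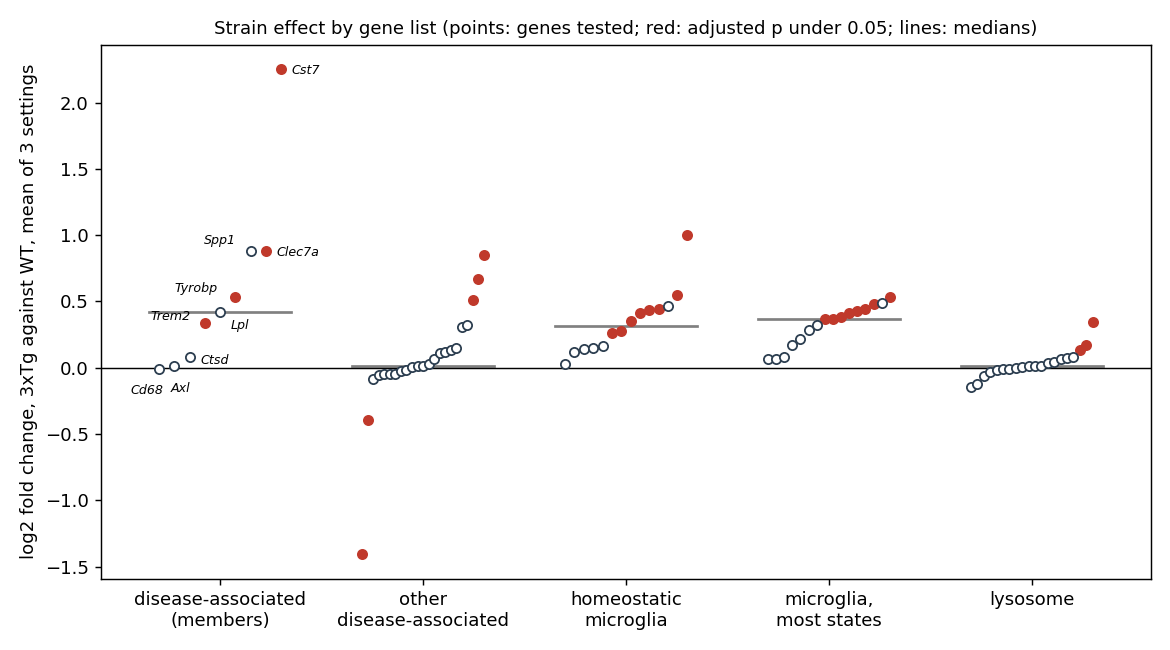
Mean strain effect (log2 fold change of 3xTg against WT over the 3 settings, vertical axis) for each tested gene of 5 lists, red where the adjusted p was under 0.05, with the median of each list as a line. Cst7, which passed the filter through 3xTg libraries alone, was at 2.25, homeostatic genes had a median of 0.32 and lysosomal genes one of 0.01.

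The counts that follow are to be read against the 11.0% of all genes called in this fit. Downstream of Trem2 and Clec7a, 11 of 12 signalling genes were tested, and 2 were called higher in the mean strain effect, the adaptor Lat2 (0.62, adjusted p = 0.00595, edgeR) and the kinase Syk (0.33, adjusted p = 0.0191). Lat2 was also called under vehicle, rising from 1.15 ± 0.165 CPM in WT-D to 2.2 ± 0.231 CPM in 3xTg-D (SD, n = 4 each). The median of the 11 was 0.21. Of 16 ligands, co-subunits, inhibitors, substrates and relatives set beside the members, 14 were tested, and 4 were called higher. These were Mertk (0.19), the Axl relative, Pros1 (0.32), a ligand of Mertk, Ctsh (0.34), a cysteine cathepsin, and Itgb5 (0.21), an integrin subunit, with adjusted p-values (edgeR) between 0.00419 and 0.0277. Among 20 lysosomal genes, 12 were higher and 8 lower, with a median of 0.00987. Of these 20, 3 were called higher and 0 lower, a share near that of all genes. The 3 called were the hydrolases Glb1 (0.35, adjusted p = 9.92e-07) and Hexa (0.17, adjusted p = 0.00928) and the sterol carrier Npc2 (0.13, adjusted p = 0.0369).

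Calls among markers of other cells are set beside the same 11.0% of all genes, a share at which short lists often hold no call. In the mean strain effect 0 of 6 endothelial, 0 of 6 meningeal, 0 of 7 oligodendrocyte, 0 of 8 tested border macrophage and 0 of 10 choroid plexus genes were called. All 10 choroid plexus genes were higher (median 0.25), as were 6 of the 8 border macrophage genes, while the other lists named here went both ways. Gfap, the astrocyte filament, was called higher by 0.28 (adjusted p = 0.0387, edgeR) as 1 of 7 astrocyte genes. All 7 neuronal genes were lower (median -0.07), and 2 were called, Prox1 by 0.23 (adjusted p = 0.0226) and Syt1 by 0.10 (adjusted p = 0.0389). The neuronal sum was 5580 to 5770 CPM in 3xTg-8M against 5870 to 6310 CPM in WT-8M. Under vehicle it was 5630 to 5780 CPM in 3xTg-D against 5920 to 6380 CPM in WT-D. With inhibitor the strains overlapped (5450 to 5800 CPM in 3xTg-S, 5570 to 5990 CPM in WT-S). The part of neurons in the members' values was not tested. The 9 genes of monocytes, neutrophils and lymphocytes summed to 1.66 to 3.47 CPM in 3xTg-D and 0.401 to 1.07 CPM in WT-D, and to 1.17 to 2.3 CPM in 3xTg-S and 0.71 to 0.936 CPM in WT-S. The 1 gene of this list that was tested, the monocyte and T cell receptor Ccr2, was called (0.90, adjusted p = 0.0229). No gene of the list passed the filter on low counts at 8 months or in WT-S against WT-D. The entry of Ccr2 thus rested on 3xTg libraries of 10 months, so its call was not free to go either way. Itgax and Cst7 are known from blood myeloid cells as well, and the part of such cells in their values was not tested.

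Whether the SCD inhibitor moves these genes was asked within each strain. In 3xTg 0 of 8 members were called, and 0.0% of all 15530 genes tested were. In WT 0 of 8 were called, again with 0.0% of all genes. At an unadjusted p under 0.05 stood Cd68 and Ctsd in 3xTg and Spp1 in WT (edgeR), as did 1733 and 538 of all genes, and DESeq2 called 15 and 0 genes. In 3xTg, DESeq2 gave no adjusted p for 5 of the 8 members (Spp1, Clec7a, Tyrobp, Cd68 and Trem2), and the other members, Axl, Ctsd and Lpl, were not called by it. None of the members was lower by a called amount in inhibitor-treated 3xTg mice than in vehicle-treated ones. Tyrobp was at 11.3 ± 2.07 CPM in 3xTg-D and 12.5 ± 1.09 in 3xTg-S (0.15, SE 0.13), Trem2 at 10.5 ± 2.49 and 11.0 ± 1.46 (0.07, SE 0.16), and Clec7a at 1.39 ± 0.305 and 1.74 ± 0.940 (0.30, SE 0.33), each as SD with n = 4. Cst7 summed to 37 reads in 3xTg-D and 42 in 3xTg-S, a ratio of 1.14 (95% interval 0.712 to 1.82, counting error only, exact permutation p = 0.686).

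Cd68 and Ctsd, both lysosomal, had the smallest p-values in 3xTg. Cd68 was at 6.65, 5.11, 5.87 and 4.88 CPM in 3xTg-D and 5.78, 6.50, 8.61 and 7.64 CPM in 3xTg-S, a log2 difference of 0.34 (SE 0.15, adjusted p = 0.439, edgeR). Ctsd was at 129.8, 117.4, 115.2 and 143.7 CPM in 3xTg-D and 134.1, 150.3, 155.1 and 134.4 CPM in 3xTg-S (0.18, SE 0.07, adjusted p = 0.419). In WT the log2 fold changes were 0.23 (SE 0.13) for Cd68 and 0.11 (SE 0.06) for Ctsd, and neither was called. The list of 20 lysosomal genes had medians of 0.03 in 3xTg and 0.04 in WT, with 0 called in either. The mean inhibitor effect over both strains, chosen after the data were seen, was 0.28 (SE 0.10) for Cd68 and 0.15 (SE 0.05) for Ctsd, with adjusted p-values of 0.294 and 0.29 (edgeR), and 0 of 9 members and 0.0% of all 16262 genes were called in it, with 2043 genes at an unadjusted p under 0.05 and 16 called by DESeq2, which gave no adjusted p for 6 of the 9 members.

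**Figure D5:**
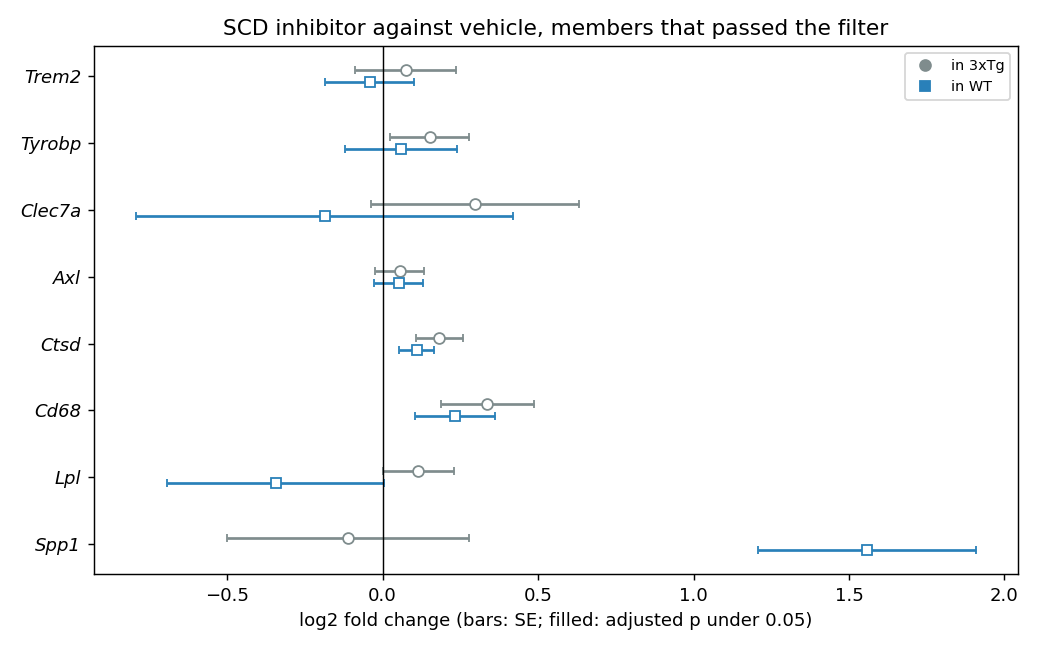
Log2 fold change of inhibitor against vehicle (horizontal axis) with its standard error, in 3xTg and in WT mice, for the 8 members that passed the filter, with no adjusted p under 0.05. Spp1 was at 1.56 in WT and -0.11 in 3xTg, and the other members lay between -0.34 and 0.34.

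Spp1 had the largest difference with inhibitor in WT, from 2.84 ± 0.294 CPM (SD, n = 4) in WT-D to 8.39 ± 4.48 CPM (n = 3) in WT-S (1.56, SE 0.35, adjusted p = 0.981, edgeR), while in 3xTg the difference was -0.11 (SE 0.39). WT-S replicate 3, at 3.27 CPM, lay close to WT-D. Without this library, which went against the difference, the value in WT was 1.95 (adjusted p = 0.00479, edgeR). Spp1 was called in WT in 2 of 15 alternatives. The interaction of strain and inhibitor was -1.66 for Spp1 (SE 0.62, adjusted p = 1, edgeR). No member was called in the interaction, 0 of 9, and 0.0% of all 16262 genes tested were, with 377 at an unadjusted p under 0.05 and 0 called by DESeq2. Choroid plexus genes had a median log2 fold change of 0.85 in WT and an interaction of -1.25, with none called. Their summed level was 229, 775 and 234 CPM in WT-S against 216 to 243 CPM in WT-D, so replicate 2 alone lay above the WT-D range, while Spp1 was also high in replicate 1, at 10.3 CPM. The 6 meningeal genes summed to 147, 139 and 83.4 CPM in WT-S against 70.8 to 111 CPM in WT-D, with 0 called. In 3xTg-D the library highest in Spp1, replicate 3, had 101 CPM of this sum, within the 70.5 to 137 CPM of its group. The part of meninges in the Spp1 values was not tested.

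Set against vehicle WT, inhibitor-treated 3xTg mice had 2 of 8 members called higher, Spp1 and Tyrobp, where 2.29% of all genes were called. Spp1 was higher by 1.69 (SE 0.16, adjusted p = 5.93e-05, edgeR), or 3.21-fold, and was called in 15 of 16 alternatives. Tyrobp was higher by 0.62 (SE 0.13, adjusted p = 0.0298), and lost its call without WT-D replicate 3 (0.0679) or 4 (0.0692), or 3xTg-S replicate 1 (0.0724), 2 (0.0731), 3 (0.0668) or 4 (0.0543). This comparison uses the same WT-D libraries as that under vehicle, whose log2 fold changes for Spp1 and Tyrobp were 1.79 and 0.46. Beside the members, 6 of 14 homeostatic genes and 6 of 16 genes of microglia in most states were called above their WT-D level in 3xTg-S, as were 2 of 7 oligodendrocyte genes, among them the myelin gene Mbp (0.43, adjusted p = 0.0283). The 7 oligodendrocyte genes summed to 4840 to 5590 CPM in 3xTg-S, 3530 to 4450 CPM in WT-D, 3350 to 4260 CPM in WT-S and 2800 to 4990 CPM in 3xTg-D. Their part in the members' values was not tested.

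Across ages, the strain effect at 10 months under vehicle differed from that at 8 months for 0 of 8 members, and for 0.0621% of all 16108 genes tested. The largest differences were 1.06 (SE 0.73, adjusted p = 0.642, edgeR) for Spp1 and 0.50 for Clec7a, and the others lay between -0.19 and 0.03. Age, surgery, infusion and library set cannot be told apart here. Labels of the libraries of 8 months also bear an L before HPP, which those of 10 months lack.

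Members were also compared by how they varied among animals of one group, as Pearson's r of log2 CPM deviations from the group means over 23 libraries, among genes of at least 1 CPM. These values are descriptions, since libraries share depth and composition. Spp1 was most like Serping1 (0.90), Cyp1b1 (0.89) and Gjb2 (0.89). Among its 100 nearest of 14622 genes stood 3 of the 9 border macrophage genes. The same 100 held 1 of 6 meningeal, 1 of 10 choroid plexus, 1 of 6 endothelial and 0 of 14 homeostatic genes. Tyrobp was most like Tent5c (0.87), Klhdc7a (0.80) and Sox21 (0.79), and had 6 of the 16 genes of microglia in most states among its 100 nearest, while Trem2 (Fyn, 0.83, Dtwd2, 0.82, and F11r, 0.82) had 4 of these 16 and 4 of the 14 homeostatic genes.

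Ctsd was most like Prdx6 (0.92), Cst3 (0.90) and Selenow (0.90), Axl like H2-D1 (0.78), Ybx1 (0.76) and Oasl2 (0.74), and Lpl like Prdx2-ps1 (0.87), Plvap (0.83) and Zfp868 (0.82). For Cd68 the nearest genes were Smc1a (0.73), Katna1 (0.66) and Ccdc191 (0.66), for Clec7a Cnst (0.78), Tor1aip1 (0.78) and Lpcat1 (0.74), for Cst7 Kcnn1 (0.73), Enpp4 (0.72) and Rnf19a (0.71), and for Itgax Chst10 (0.79), Zfp93 (0.78) and Tcf20 (0.77). Cst7 and Itgax lay under 1 CPM and were not among the genes compared. None of the other 8 members stood among the 100 nearest genes of another, and the highest r between members was 0.58, of Trem2 with Ctsd.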

How the data were processed

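RNA of the whole hippocampus of 23 mice was sequenced single-end from mRNA libraries. According to the labels and the study's methods, the authors trimmed reads with Trimmomatic 0.35, aligned them with STAR 2.5.1b to GRCm38 and deposited raw counts per gene. Whether counting used strand is not given in the sources used here. The table held 55335 genes, of which 99.7% had a length, and gene counts per library ranged from 12802267 to 36686413, so values under 1 CPM rest on few reads. Lines naming no gene took 24.7 to 30.9% of the total and were left out. Columns of no known sample numbered 0.

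Groups came from the labels. Each comparison was fitted on its own groups in edgeR 4.0.16 (R 4.3.3) with filterByExpr, TMM scaling and the quasi-likelihood test, with calls where the p adjusted over all genes tested (Benjamini-Hochberg) was under 0.05. The interaction was fitted on the 15 libraries of 10 months and the age difference on 16 libraries. Standard errors were taken from the log2 fold change and the F statistic. The alternatives were DESeq2 1.42.0 as a test and for size factors, no filter, an unadjusted p under 0.01, covariates for homeostatic and choroid plexus genes, a transcript length trend, animal numbers as a block, a joint fit and leaving out each library. The members and gene lists were chosen with earlier results of these data known. The mean strain and mean inhibitor effects, the ratios of summed counts and the exact permutation tests were added after the data were seen. Intervals cover counting error only.

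All members were described, with genes of other lists that were called in some comparison and the 3 genes most like each member. On simulated counts, 89.7% of changes of 1 and 54.1% of 0.5 on the log2 scale were recovered for 3xTg-D against WT-D (15347 genes, 6% false calls). For WT-S against WT-D it was 82.8% and 46.5% (15526 genes, 6.6%). The simulated counts held many changed genes, which eases the adjusted threshold. The measured WT-S against WT-D fit called 0 of 15724 genes, so these shares do not give its power. No libraries agreed within sampling noise (chi-square per degree of freedom 2.37 to 59.9). The labels name separate animals by number, and libraries of the same run of numbers did not deviate together (median r 0.0108 over 21 pairs). Promoters and their coordinates came from RefSeq (GRCm38.p6). Some items are not reported here.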

Additional observations from a re-analysis of the deposited data

Results flagged for a closer look

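Dixon's test was applied to the members in the groups of 4 libraries, 50 sets of values in all, and chance alone marks about 1 in 20 of such sets. It marked 2 as holding a library far from the others. Lpl in WT-D had 1 library at 92.0 CPM against 160.0 to 164.9 CPM in the others, and Itgax in WT-D had 1 library at 0.466 CPM, from 8 reads, against 2 to 3 reads in the others.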

How the results depend on the processing

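At 8 months 1 member was called, against 0 with either the homeostatic or the choroid plexus covariate, 2 at an unadjusted p under 0.01, and 0 to 1 on leaving out single libraries. For 3xTg-D against WT-D the count of 0 became 3 with no filter (Cst7, Spp1 and Tyrobp), 1 with the homeostatic covariate and 2 in the fit of all 15 libraries. It was 1 at an unadjusted p under 0.01, as were 769 of all genes, and 0 to 1 without single libraries. For 3xTg-S against WT-D the count of 2 became 5 with no filter, 1 with the homeostatic covariate, 1 without the length trend and 1 to 2 without single libraries, and Spp1 lost its call in the fit of all 15 libraries (adjusted p = 0.0509, edgeR). For WT-S against WT-D the count of 0 became 1 with no filter (2 of all 30197 genes). It was 1 at an unadjusted p under 0.01 (59 of all genes) and 0 to 1 without single libraries. For 3xTg-S against WT-S the count of 0 became 4 with no filter, 1 with DESeq2 and 1 at an unadjusted p under 0.01 (649 of all genes). It was 0 to 1 without single libraries, with Tyrobp called without WT-S replicate 2, the highest of its group (0.73, adjusted p = 0.0332). The interaction and the mean inhibitor effect went from 0 to 1 with no filter, in both cases Spp1, where 8 and 291 of all 32968 genes were called. For the mean strain effect the count of 4 became 0 with the homeostatic covariate, 6 with no filter (Spp1 and Lpl gained), 5 at an unadjusted p under 0.01 (Spp1 gained) and 2 to 5 without single libraries, the 2 being without 3xTg-S replicate 3. The causes were not tested. In 3xTg-S against 3xTg-D and in the age difference the count was 0 in every alternative, but with DESeq2 5 of the 8 members of the former had no adjusted p and could not be called. Of 1643 values of single members under alternatives, 1472 kept direction and call, 32 gained and 24 lost a call, 115 had another sign with no call on either side, and no called value reversed. No paired analysis was possible because the groups share no replicate numbers in the labels, and a block of animal-number runs changed no count of members called. Low counts limit Cst7, Itgax and Clec7a most.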
